A study of Drosophila melanogaster with 2 samples.

Results

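The 9 genes described here encode the bHLH-zipper factors of growth and nutrient control in Drosophila melanogaster, Myc, Max, Mnt, Mondo, bigmax, Mitf, Usf, crp and SREBP. They were taken by name, are 9 of the 13945 protein-coding genes annotated on the 6 chromosome arms used, and were searched for binding of Fer2, a bHLH factor without a zipper. Both samples were whole embryos of a stable transgenic line carrying Fer2 with GFP at its C terminus, aged 6 to 24 h, from which sheared chromatin (200 to 800 bp) was precipitated with an antibody against GFP. The samples are biological replicates 2 and 3 and form 1 group, and the control alignment used in peak calling is not analysed here. What drives the tagged gene, and how many insertion lines were used, is not given in the sources used here. Whole embryos mix all cell types, so a peak cannot be placed in any of them. Peaks were read from 4 lists, 1 per replicate and 1 from the pooled replicates with 30000 peaks each, and a list of 2862 peaks kept by the authors' test of reproducibility, called the thresholded list. A peak was given to a gene when its summit fell inside the annotated gene or no more than 5 kb outside, and a summit could count for several genes. Ranks are by the authors' signal value within a list, with rank 1 the highest.

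A bHLH-zipper protein pairs through its helix-loop-helix and zipper together and grips DNA through the basic region, most often at the E-box CACGTG. Myc binds with Max and drives ribosome production and cell growth, while Mnt binds with Max and opposes Myc. Mondo pairs with bigmax and switches on genes of sugar use, Mitf controls the acidification of lysosomes and autophagy, and SREBP is cut from a membrane precursor and drives fatty acid synthesis. Usf is the fly member of the upstream stimulatory factor family, and crp (cropped) is needed for terminal branching of the tracheal tubes.

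Thresholded peaks lay at 6 of the 9 genes: crp had 6, bigmax 4, SREBP 3, Mnt 2, and Max and Mitf 1 each, 17 in all. Myc, Mondo and Usf had none within 5 kb. Of all protein-coding genes, 39.8% had a thresholded summit within this range, so 6 of 9 is a description of these genes and no test of the list was made. In the pooled list all 9 genes had a peak, where 87.4% of protein-coding genes did. All 9 also had a peak in the list of replicate 2 (87.4% of all genes) and of replicate 3 (91.6%). The members held 101 pooled peaks, 102 of replicate 2 and 83 of replicate 3. The 17 thresholded peaks were of middling height, with signal values from 79.2 to 177.2 and a median of 122.0, against a median of 122.7 and a range of 75.7 to 2295 over all 2862. Their ranks ran from 787 to 2695. With the 2862 highest peaks of replicate 3 alone in place of the thresholded list, Mitf had 0 peaks, Mnt 1 and Max 2. With those of replicate 2 alone, Mitf had 2, bigmax 3, crp 5 and SREBP 2. In both settings Myc, Mondo and Usf had 0.

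**Figure D1:**
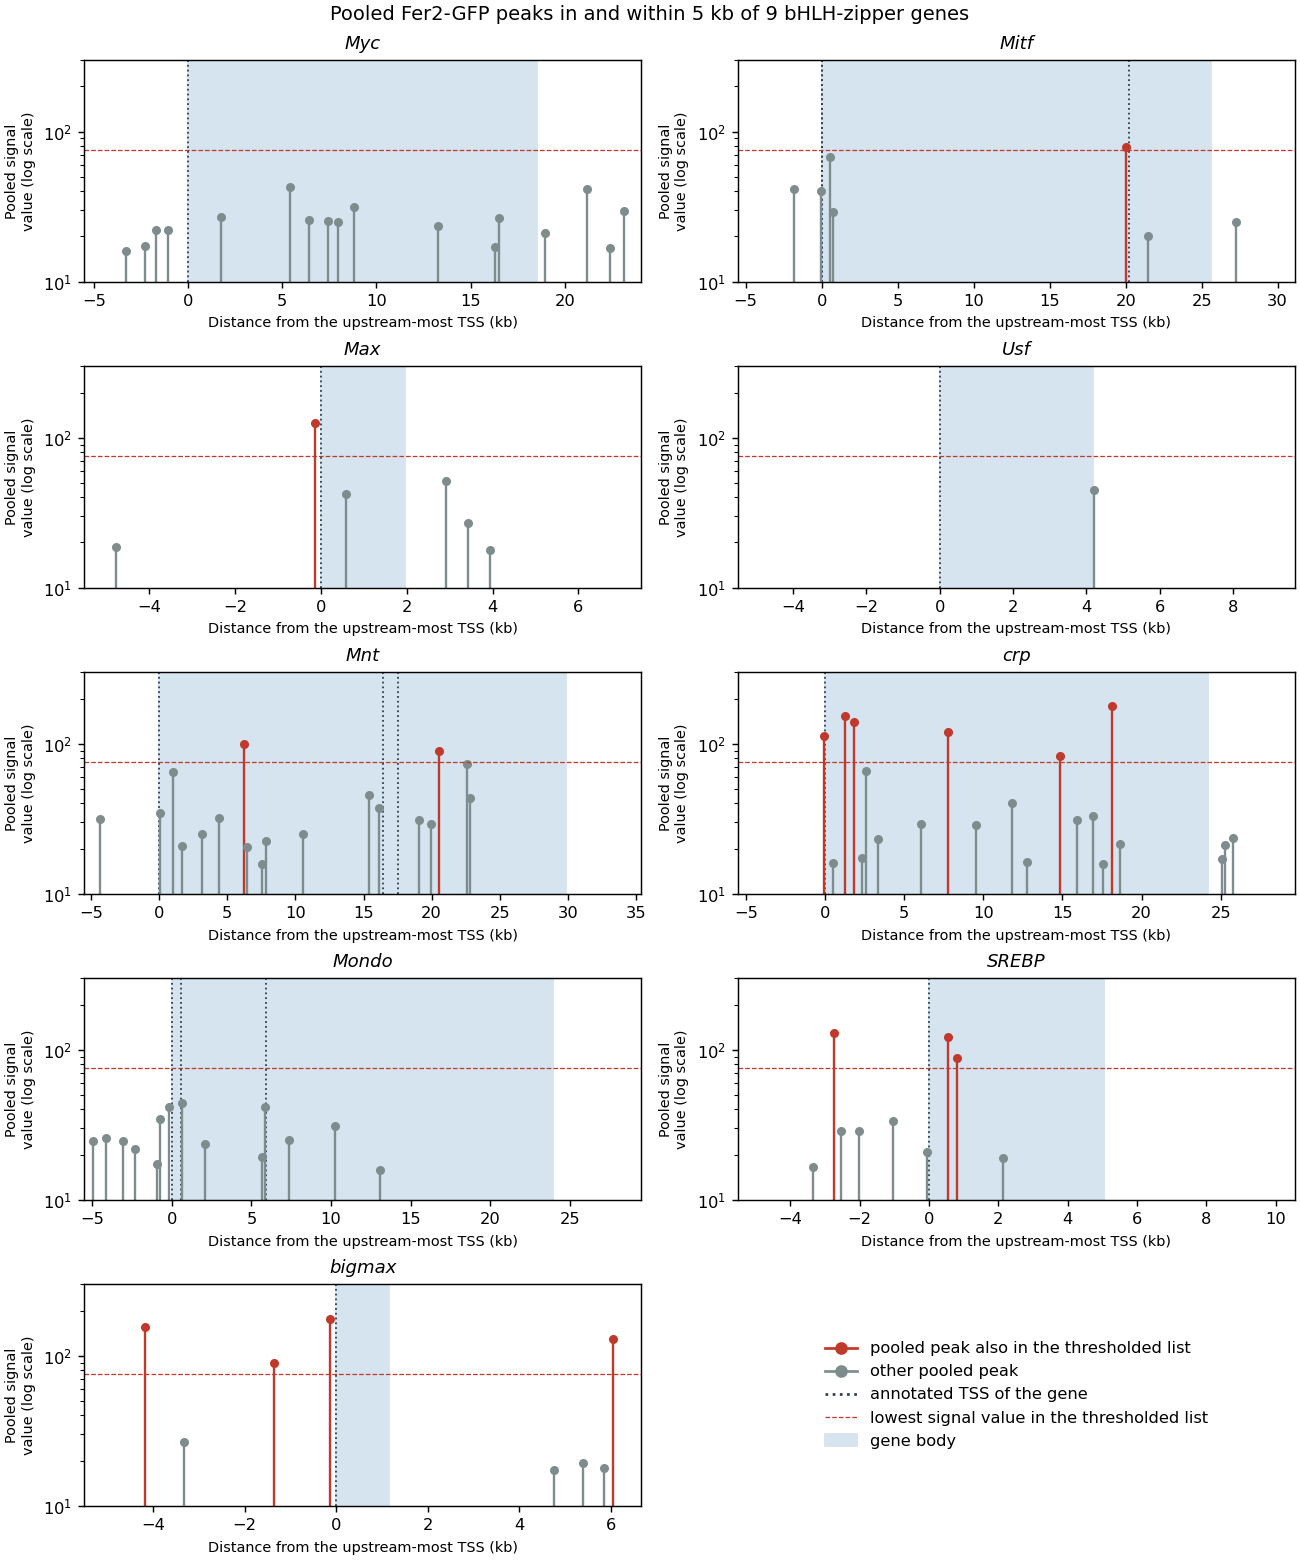
Pooled peaks in and within 5 kb of each of the 9 genes, drawn in the direction of transcription. The x axis is the distance from the upstream-most TSS in kb, the y axis the authors' pooled signal value on a log scale, and the dashed line the lowest value in the thresholded list, 75.7. In crp 6 peaks reach above it, and at Myc, Mondo and Usf 0 do.

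The strongest peak at any of these genes lay deep in crp, and its sequence is shown because it held the only CACGTG among the 17 called intervals. It is given for the dm6 plus strand, 5′ to 3′, with each E-box (CANNTG) in capitals.
crp, chr2L:16269505-16269678: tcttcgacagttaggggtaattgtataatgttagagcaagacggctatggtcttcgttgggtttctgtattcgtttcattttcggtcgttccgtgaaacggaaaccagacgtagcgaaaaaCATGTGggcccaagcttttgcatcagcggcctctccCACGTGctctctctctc
The CATGTG begins 16 bp to the right of the summit and the CACGTG 52 bp to the right, so only the first lies within 50 bp. CACGTG was in the called interval of 101 of all 2862 thresholded peaks (3.53%). A match of letters does not show which protein was bound.

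The remaining windows shown, of 6 summits, are 101 bp long and centred on the summit, also on the dm6 plus strand and 5′ to 3′. They were chosen for the E-box matches, the start sites and the word TAATTA described with each gene. Capitals mark matches to CANNTG, to the word TAATTA and to the word CGATA, each in either orientation. The word GAGAG is in none of them. Windows that met an annotated UTR, at Max and at 1 of the SREBP peaks, are not shown.
bigmax start, chr3R:27288618-27288718: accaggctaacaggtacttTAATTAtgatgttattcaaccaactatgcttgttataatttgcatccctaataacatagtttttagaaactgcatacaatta
bigmax upstream, chr3R:27289840-27289940: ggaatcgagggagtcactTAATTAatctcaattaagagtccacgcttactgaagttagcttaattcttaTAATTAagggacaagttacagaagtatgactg
crp start, chr2L:16287782-16287882: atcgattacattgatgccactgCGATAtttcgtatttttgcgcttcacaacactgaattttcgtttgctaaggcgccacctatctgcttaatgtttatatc
crp intron, chr2L:16272850-16272950: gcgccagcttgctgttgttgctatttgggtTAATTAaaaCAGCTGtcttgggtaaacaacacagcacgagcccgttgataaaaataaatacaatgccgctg
Mitf internal start, chr4:1218798-1218898: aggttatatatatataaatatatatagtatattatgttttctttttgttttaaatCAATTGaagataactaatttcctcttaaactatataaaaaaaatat
SREBP upstream, chr3L:19791154-19791254: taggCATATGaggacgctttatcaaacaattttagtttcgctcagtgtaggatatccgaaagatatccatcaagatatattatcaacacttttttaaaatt

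Max (FBgn0017578, 3L 19262232 to 19264184, minus strand), the shared partner of Myc and Mnt, had its thresholded peak at its start. This peak (3L 19264141 to 19264510, signal value 125.2, rank 1375) had its summit 142 bp upstream of the Max TSS. The same summit was 78 bp upstream of a TSS of Mettl5, which encodes an RNA methyltransferase and is transcribed the other way, and it lay inside the annotated Mettl5 and CG42374, so the peak cannot be given to Max alone. The peak ranked 2290 in replicate 2 and 1047 in replicate 3. A CATTTG began 19 bp to the right of the summit. Of the other 5 pooled peaks, the highest (rank 4754) lay 2921 bp downstream of the TSS, past the 3′ end of Max. This peak was 131 bp upstream of a start of Bet1. Its rank was 2763 in replicate 3, and the overlapping replicate 2 peak with the nearest summit ranked 15022.

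Myc (FBgn0262656, X 3373159 to 3391697, plus strand) had no thresholded peak in its 18.5 kb or within 5 kb. Its 17 pooled peaks were spread over the gene and both flanks, 9 of them inside it. Of protein-coding genes of any length, 2.59% had as many or more, and genes over 10 kb had a median of 8. The Myc peaks were weak: the best ranked 6219 (signal value 42.8), 5439 bp downstream of the TSS. An equal or better pooled rank was held by 57.8% of protein-coding genes. The same site ranked 6166 in replicate 2 and 5886 in replicate 3, ranks close to the pooled one. The best Myc peak of replicate 2 was another, at rank 4337 and 6408 bp downstream, which no replicate 3 peak overlapped. None of the 4 lists had a summit within 500 bp of the Myc TSS, and the nearest pooled summit was 1074 bp from it. The closest thresholded peak lay 7.74 kb past the 3′ end, in introns of CG12535 and of lncRNA:CR44999 (X 3399252 to 3399621, rank 1773). Myc was its nearest protein-coding start, 26278 bp away.

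Mnt (FBgn0023215, X 3671801 to 3701672, plus strand), the repressor that shares Max, had 2 thresholded peaks, both in its own introns, and 14.1% of protein-coding genes had 2 or more. The first (X 3677841 to 3678210, signal value 99.9, rank 1950) was 6225 bp downstream of the nearest of its 3 start sites and ranked 1302 in replicate 2 and 3374 in replicate 3. The second (X 3692133 to 3692502, 89.1, rank 2317) was 2955 bp downstream of a start and ranked 4438 in replicate 2 and 1722 in replicate 3. The replicates thus put them in opposite order. Neither window held CANNTG within 50 bp, while the first held CGATA 2 times. A further intron peak at pooled rank 2993 (72.8) lay just under the lowest thresholded value. At the starts themselves the pooled peaks were lower, the best within 500 bp at rank 7608.

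Mondo (FBgn0032940, 2L 21286078 to 21310050, minus strand), the sugar-responsive factor, had 14 pooled peaks and no thresholded one. Of the 14, 4 were within 500 bp of its own start sites, and others lay at or in the neighbouring gene crc. The best, at rank 5896 (44.3), was 74 bp downstream of the middle of its 3 start sites. A peak at rank 6461 was 66 bp upstream of the most internal start, and another at 6472 was 186 bp upstream of the outermost, towards crc. The first ranked 6250 in replicate 2 and 13629 in replicate 3. The best Mondo peak of replicate 2 (rank 5513) was 4033 bp upstream of Mondo and 277 bp from a crc start, while that of replicate 3 (rank 5023) was 229 bp upstream of Mondo. The nearest thresholded summit was 61.0 kb upstream, at the start of CG8665.

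The gene of its partner, bigmax (FBgn0039509, 3R 27287366 to 27288526, minus strand), is 1.16 kb long and had 4 thresholded summits in its range of 11.2 kb. Of protein-coding genes, 1.1% had 4 or more. Neighbouring genes had similar counts by the same rule, 4 at CG3368 and 3 each at Hmu and mrt. With a range of 1 kb, bigmax had 1. None of the 4 lay inside bigmax. The highest (3R 27288584 to 27288734, 175.4, rank 801) lay between bigmax and Hmu, whose start sites are 243 bp apart on opposite strands, 142 bp upstream of bigmax and 101 bp upstream of Hmu (Hemomucin). It ranked 904 in replicate 2 and 822 in replicate 3, and 15.7% of genes had an equal or better pooled rank. The other 3 were also each nearer to another gene's start. One (3R 27292617 to 27292796, 155.8, rank 980) was 498 bp upstream of CG3348. Another (3R 27282278 to 27282647, 129.0, rank 1316) was 198 bp downstream of the start of mrt. The last (3R 27289705 to 27290074, 89.9, rank 2286) was in Hmu, 1121 bp from its start. It ranked 5833 in replicate 2 and 1644 in replicate 3. The window at the bigmax start and the one in Hmu held TAATTA, and no window of the 4 held CANNTG.

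Mitf (FBgn0263112, 4 1198852 to 1224467, plus strand), the lysosomal regulator on the small chromosome 4, had its thresholded peak at an internal start. This peak (4 1218663 to 1219032, 79.2, rank 2695) had its summit 192 bp upstream of the start that lies furthest into the gene. The replicates differed here, with rank 1594 in replicate 2 (53.2) and 7462 in replicate 3 (22.7). The window was the most AT-rich of the 17, with 13.9% GC, and a CAATTG began 5 bp to the right of the summit. Near the outer start the replicates differed more. A site 538 bp downstream of an outer start (pooled rank 3305, 67.5) ranked 1227 in replicate 2, and no replicate 3 peak overlapped it. Conversely, the summit 21 bp upstream of the outermost start (pooled rank 6857) ranked 22678 in replicate 2 and 5204 in replicate 3.

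SREBP (FBgn0261283, 3L 19793935 to 19798979, plus strand), the regulator of lipid synthesis, had 3 thresholded peaks, 2 of them a close pair just inside the gene. Of all protein-coding genes 3.8% had 3 or more. Of the pair, the first (3L 19794298 to 19794667, 122.0, rank 1447) was 548 bp and the second (3L 19794547 to 19794916, 88.7, rank 2331) 797 bp downstream of the TSS, both in an intron. The first ranked 1679 in replicate 2 and 1863 in replicate 3. The second ranked 11895 in replicate 2 and 1814 in replicate 3. The remaining peak (3L 19791019 to 19791388, 128.7, rank 1320) was 2731 bp upstream of SREBP, but 163 bp upstream of a start of Gyc76C, a receptor guanylate cyclase. It ranked 2372 in replicate 2 and 1479 in replicate 3, and its CATATG began 46 bp to the left of the summit. At the SREBP start itself the pooled peak was weak (rank 18858, 49 bp upstream).

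Usf (FBgn0029711, X 4544617 to 4548794, minus strand) had the fewest pooled peaks of the 9, a single one. In the list of replicate 2 it had 4 peaks and in that of replicate 3 it had 2. The pooled peak ranked 5790 (44.9) and lay 4211 bp from the TSS, just past the 3′ end. It ranked 16621 in replicate 2 and 3454 in replicate 3. No list had a summit within 500 bp of the Usf start. The nearest thresholded summit was 41.4 kb away, in lncRNA:CR32773.

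crp (FBgn0001994, 2L 16263556 to 16287730, minus strand) carried the most thresholded peaks of the 9, with 5 in its introns and 1 at its start. Of all protein-coding genes, 0.179% had 6 or more, and of the 1977 genes over 10 kb, 1.16% did. The intron peak shown above (177.2, rank 787), 18120 bp downstream of the TSS and 7469 bp from the start of CG4935, ranked 827 in replicate 2 and 739 in replicate 3. The next (2L 16286297 to 16286666, 153.6, rank 999) was 1248 bp downstream and ranked 1981 in replicate 2 and 750 in replicate 3. A further one (2L 16285838 to 16285968, 139.1, rank 1173) was 1850 bp downstream and ranked 1068 in replicate 2 and 1101 in replicate 3. These 3 and the next were among the 2862 highest peaks of each replicate.

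The other 3 crp peaks were lower. The peak at 7794 bp (2L 16279751 to 16280120, 120.1, rank 1491) ranked 900 in replicate 2 and 2701 in replicate 3. The start peak (2L 16287762 to 16287872, 112.2, rank 1642) was 102 bp upstream of the TSS and ranked 3990 in replicate 2 and 1120 in replicate 3. The start of pkaap lies 560 bp from that of crp on the other strand. The peak at 14830 bp (2L 16272715 to 16273084, 83.3, rank 2521) ranked 1925 in replicate 2 and 4363 in replicate 3, and held CAGCTG beginning 11 bp to the left of its summit.

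**Figure D2:**
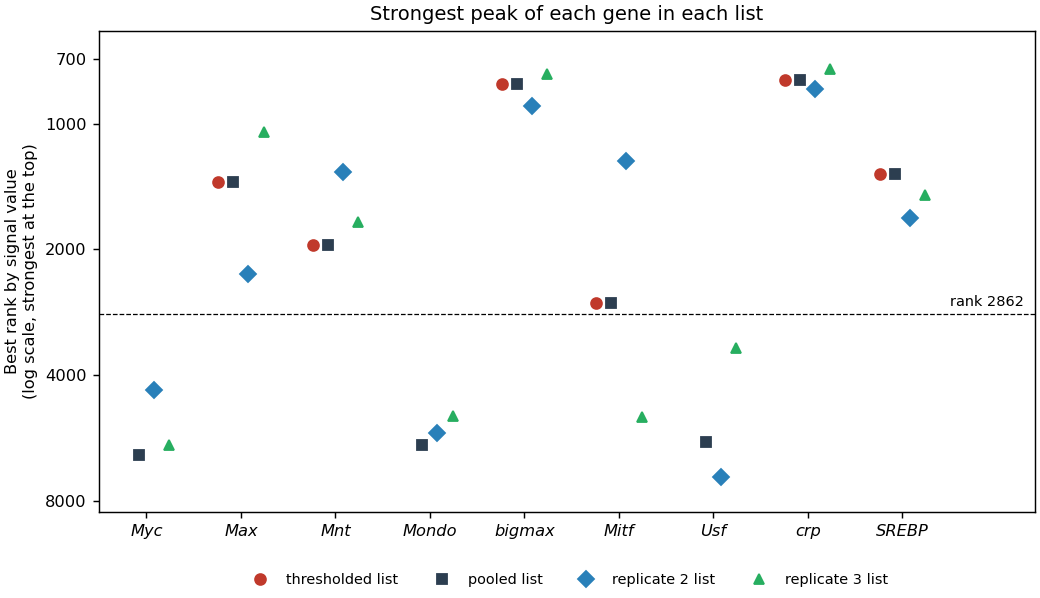
Best rank by signal value of each of the 9 genes in each of the 4 lists, on a log scale with the strongest at the top. The dashed line is rank 2862, the length of the thresholded list. bigmax and crp stay between ranks 739 and 904 in every list, and Myc, Mondo and Usf are below the line in all 3 lists in which they have a peak.

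All 17 thresholded peaks were overlapped by a peak of each replicate, as were nearly all 2862 (2853 by replicate 2 and 2854 by replicate 3). The thresholded list was derived from the replicate and pooled lists by a test of reproducibility. Such overlap is therefore built in and is no separate sign of agreement. The nearest summits of the overlapping peaks lay 2 to 77 bp away in replicate 2 (median 17) and 0 to 45 bp in replicate 3 (median 12). Over all 2862 the medians were 20 and 17 bp. With a reciprocal overlap of 50% required, 12 of the 17 were overlapped by both, a count with no share of all 2862 beside it. The narrow intervals, of 111 to 180 bp at bigmax and crp, cannot cover 50% of a replicate 2 peak of 380 bp. Interval width thus fixed this count, which does not measure agreement. Of the 17, 10 ranked 2862 or better in both replicates (58.8%), against 70.9% of all thresholded peaks. Replicate 3 gave the better rank at 11 of the 17 and replicate 2 at 6, against 1533 and 1304 of all 2862, so the lists as a whole leaned the same way. Each rank rests on 1 list per embryo collection, so these differences carry no error estimate. Of the 101 pooled peaks at the 9 genes, which include these 17, 59 were overlapped by a peak of both replicates. Replicate 2 overlapped 79.2% of the 101, against 67.1% of all 30000 pooled peaks, and replicate 3 overlapped 73.3%, against 72.0%.

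**Figure D3:**
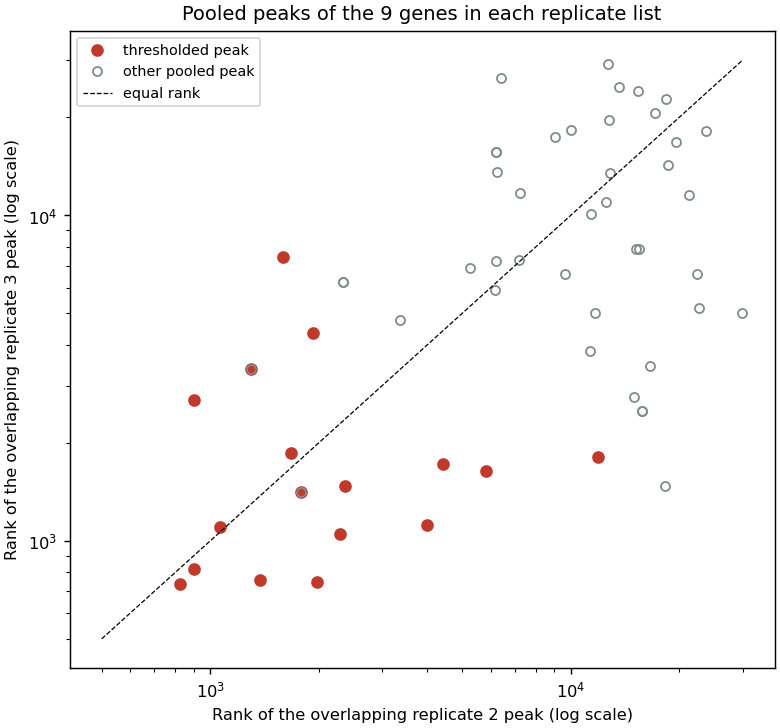
Rank of the overlapping replicate 2 peak (x) and replicate 3 peak (y), both on log scales, for the 59 pooled peaks of the 9 genes that both replicates overlap. Where several peaks overlap, the one with the nearest summit is used, so points that coincide share a replicate peak. Thresholded peaks (red) include one at Mitf with rank 7462 in replicate 3 and one at SREBP with rank 11895 in replicate 2.

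With a start taken as within 500 bp of a TSS, the thresholded peaks of these genes lay in introns more often than at starts. Of the 17 summits, 10 were in introns away from any TSS (58.8%, against 30.3% of all 2862) and 7 within 500 bp of an annotated TSS (41.2%, against 58.4%). This order depends on the window. The SREBP pair counted as intron lay 548 and 797 bp from its TSS. With a wider window 9 of the 17 were near a start, and with a narrower one 6. The crp gene alone gave 5 of the 10 intron summits, and summits in a gene share that gene, so the shares were not tested. The 17 were also picked for lying in or near 9 genes, 5 of them over 10 kb, while 9.33% of all 2862 were intergenic. The 2 sets are thus not alike in how they were chosen. Only 4 summits were within 500 bp of the member's own TSS, at Max, bigmax, Mitf and crp. By this measure 4 of the 9 genes had a thresholded peak at a start, where 15.9% of all protein-coding genes did. In the pooled list 7 of the 9 did, against 49.6%, and also 7 in replicate 2 (52.6% of all) and 7 in replicate 3 (48.9%). For 8 of the 17 summits the nearest protein-coding start belonged to another gene. Of the 9 genes, 5 had their outermost start within 500 bp of a protein-coding start on the other strand, namely Max, Mnt, bigmax, Usf and SREBP, and 27.3% of all protein-coding genes did.

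Gene length bears on these counts, since a longer gene offers a wider range. Of the 5 members over 10 kb, 3 had a thresholded peak (Mnt, Mitf and crp), against 51.5% of all genes of that length. All 5 had a peak in the pooled list (97.6% of such genes), in replicate 2 (96.5%) and in replicate 3 (99.2%). Of the 4 shorter members, 3 had a thresholded peak (Max, bigmax and SREBP), against 37.9%. Myc (18.5 kb) and Mondo (24.0 kb) had none at lengths like that of crp (24.2 kb). In all, crp and bigmax held 10 of the 17 peaks.

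**Figure D4:**
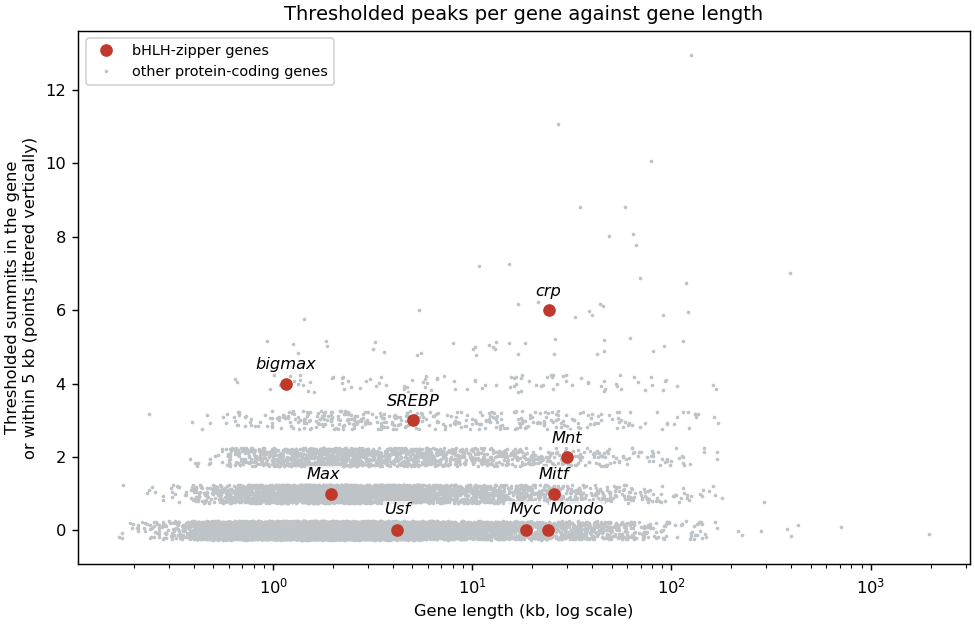
Thresholded summits in each protein-coding gene or within 5 kb of it (y, points of other genes jittered vertically) against gene length in kb (x, log scale). The 9 bHLH-zipper genes are red and the other protein-coding genes grey. crp has 6 summits at 24.2 kb and bigmax 4 at 1.16 kb, while Myc, Mondo and Usf have 0.

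The E-box CANNTG lay within 50 bp of 5 of the 17 summits (29.4%), against 32.4% of all thresholded summits. Within 100 bp it lay at 10 of the 17, a count with no share of all summits beside it. Each of the 5 within 50 bp had a different form. Max had CATTTG and Mitf CAATTG. At SREBP it was CATATG, and crp had CATGTG at one summit and CAGCTG at another. CATATG was at 4.30% of all summits and CAGCTG at 3.07%. CACGTG lay within 50 bp of 0 of the 17 and of 0.804% of all. Over the called intervals, which differ in width, 11 of the 17 held CANNTG (64.7%) and 71.2% of all did. TAATTA was at 4 of the 17 (23.5%, against 11.5% of all), in bigmax 2 times and in SREBP and crp. CGATA was at 2 (15.5% of all), GAGAG at 1 (8.67% of all). CAGATG (2.80% of all) was at 0, as was TATCGATA (1.64% of all). The spelled-out E-boxes are all forms of CANNTG, and each TATCGATA also counts as a CGATA. GC content within 50 bp had a median of 30.7% both at the 17 and over all 2862, and the crp peak at rank 787 was the highest of the 17 at 49.5%.

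The wider pathways of these factors were read from 6 lists of 65 genes, by the same range of 5 kb and beside the same 39.8% of all genes. Of 8 cofactors and regulators of Myc, 4 had a thresholded peak (50%), all with the best within 500 bp of their own TSS. They included pont, a DNA helicase (303.4, rank 272, 103 bp from its TSS), the demethylase gene Kdm5 (rank 1416) and ago, whose product marks Myc for degradation (rank 2285, with the nearest start that of CG1265). Nipped-A and puf had none. Of 10 genes of the nucleolus and ribosome production, 4 had a peak (40%), while Nop60B and pit had none. Among the 4 were Polr1A (rank 1168, but 4333 bp from its TSS), nop5 (rank 1696) and Nop56 (rank 2001). In 3 of the 4 the best summit was nearer to another gene's start.

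Of 7 genes of the Mondo network, 3 had a peak (42.9%), and the best was far higher than any at the factor genes themselves. It was at cbt, a zinc finger repressor downstream of Mondo, at rank 5 (1376), 1404 bp from its TSS. Aldh-III (rank 1257) and Pfrx (rank 2043) followed, and sug and daw had none. Of 11 genes of SREBP processing and lipid synthesis, 6 had a peak (54.5%), led by Desat1 (rank 22), ATPCL (rank 115) and FASN2 (rank 783). For these 3 the nearest start was another gene's, CG18549, CG8320 and CG17221. SCAP and S1P, which escort and cut SREBP, had none.

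Of 16 genes of the lysosomal proton pump and autophagy, the processes that Mitf controls, 12 had a peak (75%). The highest was at Vha14-1 (rank 134), 860 bp from its TSS but nearest to a start of Gmppa. Next came Vha13 (rank 325), 2526 bp from its TSS and nearest to subdued, and the autophagy gene Atg18a (rank 502, 18 bp from its TSS). Vha44 and Vha68-2 had none. In 8 of the 12 the best summit was nearer to another gene's start. Of 15 genes of TOR and insulin signalling, 11 had a peak (73.3%), and raptor and S6k had none. The highest were at foxo (rank 124, 3334 bp from its TSS) and the insulin receptor gene InR (rank 280, 658 bp). RagC-D followed (rank 447, 1282 bp, with the nearest start that of CG30373). In 6 of the 11 the best summit was nearer to another gene's start. No test of these lists was made.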

How the data were processed

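Chromatin immunoprecipitation followed by sequencing was done on 2 embryo samples. The authors deposited 4 peak lists on dm6. Per the labels' text files, each replicate and the pool were called against the same control alignment, and the thresholded list derives from the other 3 by the irreproducible discovery rate. The sources used here name neither the caller and its settings nor the threshold. Each list the authors deposited holds a signal value per peak, a score on an unstated scale, which served here for ranks inside that list. The −log10 q-values in the deposited lists were 3.83 for every thresholded peak and served no purpose here. The lists hold no read counts, so depth is unknown. All values over peaks describe these lists and not the spread between embryo collections.

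Genes came from Ensembl release 115 (BDGP6, transposable elements left out) and sequence from NCBI RefSeq Release 6, the same assembly as dm6. On it 99.8% of annotated start codons read ATG, and 0 peaks ran past the end of an arm. The summit is the start plus the offset in the list, given 1-based, as are all coordinates. Negative or upstream distances follow the gene's strand. A summit within 500 bp of any annotated TSS was counted as promoter. Words of either orientation were sought up to 50 bp to each side of a summit. Replicate peaks were matched by an overlap of at least 1 bp, taking the nearest summit. Positions and words were computed in Python 3.11.15 with pandas 2.3.3 and numpy 2.4.6, and the counting was checked on simulated data.

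The 9 genes and the pathway lists were chosen with earlier results of these data known. All 9 are named, with, from each list, up to 3 genes with the highest peak and up to 2 without a peak in list order. 3 listed symbols were replaced by current ones (Kdm5, mTor and ATP6AP2). Alternatives changed the range, the assignment, the threshold, the windows and the overlap, and left out each replicate by taking the 2862 highest peaks of the other.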

Additional observations from a re-analysis of the deposited data

How the results depend on the processing

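The count of 6 of 9 genes with a thresholded peak stayed between 4 and 7 under every alternative tried: 4 with gene bodies only or the upper 50% of the thresholded list, 7 with a range of 10 kb (Myc was added), and 5 to 6 without 1 replicate. Mondo and Usf had 0 in each of these settings. The 9 genes with a pooled peak became 7 with gene bodies only and 6 by the nearest start. The shares of all genes and peaks given above hold for the main settings, so the counts here have none beside them. Of 32 alternatives, 5 moved a count by over 1.5 times. The 17 peaks became 10 with gene bodies only and 8 with the upper 50%. They became 11 when each went to the nearest start at any distance, where bigmax and Max had 0 and Myc gained 2 that lie beyond 5 kb. Summits with CANNTG became 10 of 17 within 100 bp. Summits near a start became 4 of 17 when only the member's own was counted. Changes of the promoter window are not among these 5. A wider window gave 9 of 17 near a start, so that starts then held most of the summits, and a narrower window gave 6. Leaving out a replicate gave 15 to 16 peaks, 5 to 6 with CANNTG and 5 to 6 near a start. Without replicate 2 Mitf had 0 peaks in place of 1, Max 2 in place of 1 and Mnt 1 in place of 2. Without replicate 3 Mitf had 2 in place of 1. In the same setting bigmax had 3 in place of 4, crp 5 in place of 6 and SREBP 2 in place of 3. No paired analysis was possible because both samples belong to 1 group. The unknown depth and 1 list per replicate limit how finely ranks can be compared.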
